A study of Mus musculus with 4 samples.

Results

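The genes described here are 10 immediate early transcription factors of the EGR and AP-1 families, read in the mouse line ATDC5, whose cells can become chondrocytes, after knockdown of Chadl, which encodes the cartilage protein chondroadherin-like. They are Egr1, Egr2, Egr3, Fos, Fosb, Fosl1, Fosl2, Jun, Junb and Jund, and they were taken by name as every probe set whose only annotated symbol is one of these. All 10, of 17097 genes in the table, were read, by 15 of its 45141 probe sets. Of these genes 5 had 1 probe set and 5 had 2. There were 2 knockdown arrays, from cells transfected with a duplex against Chadl, and 2 control arrays, from cells given a scrambled duplex. Both groups received 30 nM of a 27-mer duplex that the labels call an shRNA, were moved to differentiation medium after 16 h with renewal every 2 days, and gave RNA on day 5. The hours between the last medium change and RNA isolation are not stated in the labels.

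A single Chadl duplex was used, so the loss of Chadl and other effects of that duplex cannot be told apart. The duplex is shown because it is the only difference between the groups that the labels state, and they give 25 nucleotides of it.
Chadl duplex: acaagguagagaaacaaagagacca
Replicates are labelled biological, but separate cultures are not mentioned, and the spread on which p-values rest could thus be technical. Each value is a log2 signal after RMA, a method that subtracts background, gives all arrays the same distribution and combines the probes into 1 value per probe set. The levels of different probe sets are not comparable as amounts of RNA, and each gene is read only against itself across the arrays.

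Immediate early genes are transcribed within minutes of a growth factor, cytokine or mechanical signal, without new protein synthesis, and their messages are short-lived. MAP kinases switch on many of them through serum response factor (SRF) and its ternary complex partners, which bind the CArG box, and through factors of the CREB/ATF class. EGR proteins are zinc finger factors that bind GC-rich sites. AP-1 is a dimer of 2 leucine zipper proteins, of Jun with Fos or of Jun with Jun, and it binds the TPA response element. In the skeleton Fos, Fosl1, Fosl2 and Junb are known regulators of chondrocytes and bone cells, and Egr1 takes part in tendon and matrix gene control.

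Promoters of members on both sides of the comparison are shown because they hold elements through which these families are known to be controlled. RefSeq windows (GRCm38.p6) were found for 7 of the 10 genes. The 250 bases before each start were searched on both strands for the CArG box, the full cAMP response element TGACGTCA, the TPA response element TGANTCA, the variant AP-1 element TGACATCA and the EGR element GCGNGGGCG. No 2 of these matches overlapped in the members' windows. Capitals mark the matches in the windows of Egr2 (the third of its 5 listed starts), Fosb, Fosl2 and Jun.
Egr2 (chr10:67537619-67537868, plus strand): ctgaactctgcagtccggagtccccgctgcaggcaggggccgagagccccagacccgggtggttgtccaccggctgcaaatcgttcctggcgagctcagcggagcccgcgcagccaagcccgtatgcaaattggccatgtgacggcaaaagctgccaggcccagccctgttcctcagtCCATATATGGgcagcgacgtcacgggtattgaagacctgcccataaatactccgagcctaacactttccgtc
Fosb (chr7:19310046-19310295, minus strand): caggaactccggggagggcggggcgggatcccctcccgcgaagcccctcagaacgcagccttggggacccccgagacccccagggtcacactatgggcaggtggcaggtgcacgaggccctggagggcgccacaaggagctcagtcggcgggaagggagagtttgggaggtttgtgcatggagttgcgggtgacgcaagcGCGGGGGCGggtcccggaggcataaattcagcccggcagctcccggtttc
Fosl2 (chr5:32136222-32136471, plus strand): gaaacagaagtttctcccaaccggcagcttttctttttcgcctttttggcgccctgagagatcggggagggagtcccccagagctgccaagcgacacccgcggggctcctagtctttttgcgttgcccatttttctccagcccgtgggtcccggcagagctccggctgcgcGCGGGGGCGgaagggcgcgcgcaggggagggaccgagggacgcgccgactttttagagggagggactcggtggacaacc
Jun (chr4:95052223-95052472, minus strand): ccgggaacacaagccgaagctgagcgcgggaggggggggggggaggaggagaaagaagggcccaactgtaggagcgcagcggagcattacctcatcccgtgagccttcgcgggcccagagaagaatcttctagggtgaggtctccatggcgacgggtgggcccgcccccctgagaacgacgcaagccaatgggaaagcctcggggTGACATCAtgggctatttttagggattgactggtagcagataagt
The Egr2 window shown, chosen after its match was seen, held a CArG box 72 to 63 bases before the start, an element found in 1.47% of 32851 windows of this length. Of the other Egr2 windows, that of the first start held no match, that of the second held another CArG box, CCTTTTTTGG, and those of the remaining starts overlap the window shown and held the same box. With 5 windows Egr2 had more chances of a match than a gene with 1. Jun held the variant AP-1 element 45 to 38 bases before its start (2.93% of windows). Fosb and Fosl2 each held the EGR element, 50 to 42 and 79 to 71 bases before the start (4.7% of windows). The 250 bases searched for Fos, Junb and Jund held no match to these letters. Bases further upstream and other variants of these elements were not searched, so their presence at these genes is not known from this. The full cAMP response element occurred in 1.55% of all windows and the TPA response element in 6.75%, and in none of the members' windows. These are letter matches only.

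Chadl itself read 4.29 and 4.64 in knockdown and 4.91 and 4.84 in control, lower in both arrays and more so in knockdown 1. The log2 difference was -0.41 (SE 0.12, limma unadjusted p = 0.0158, adjusted p = 0.728). Its signal lay at percentile 47.1, below the median of all genes, where RMA compresses a change, so this need not be the full size of the knockdown.

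Egr1 and Egr2 had lower signal and Jun higher signal in both knockdown arrays than in both controls, by 1.21-fold to 1.32-fold, while most Fos-family genes and Junb and Jund did not separate the groups. By limma, fitted over 17097 genes, 0 of the 10 reached an adjusted p under 0.05, where 0% of all genes did and the lowest adjusted p was 0.178. At an unadjusted p of 0.05 there were 2 lower members (Egr1 and Egr2) and 1 higher member (Jun), against 2.52% of all genes lower and 4.15% higher. Both knockdown arrays lay below both controls for 3 members, the third being Fosb, against 17.1% of all genes. They lay above both controls for 1 member, against 21.2% of all genes. The median difference of the members was -0.02, beside 0.01 over all genes, and the median size regardless of sign was 0.11, beside 0.07. In bulk RNA, fewer cells expressing a gene and less RNA per cell cannot be told apart.

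**Figure D1:**
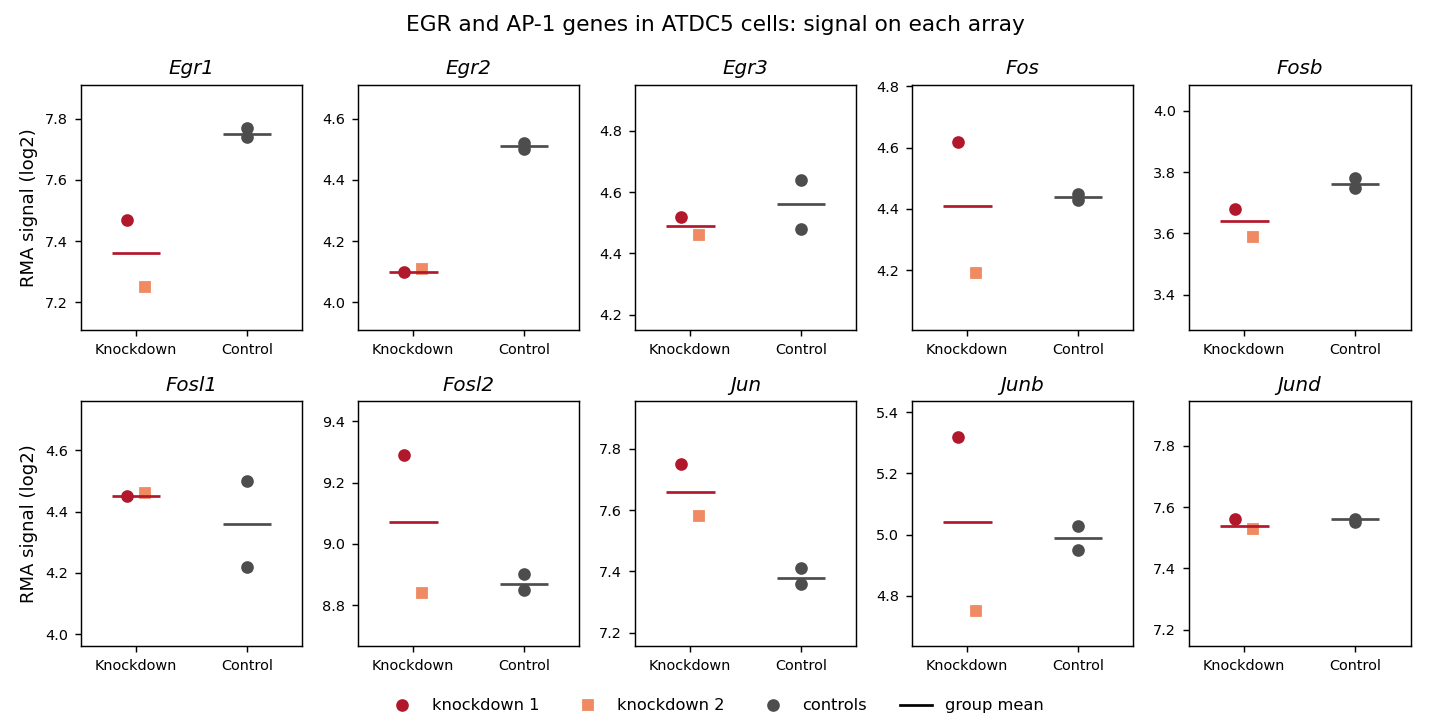
RMA signal (log2) of each of the 10 genes on each array, by its brightest probe set, with knockdown on the left and control on the right of each panel; horizontal lines are group means and every vertical axis spans the same number of log2 units. Egr1, Egr2 and Fosb have both knockdown arrays below both controls, Jun has both above, and the knockdown arrays of Fos, Junb and Fosl2 lie apart from each other.

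Egr1, the best known EGR factor and a rapid responder to ERK signalling, was lower in knockdown. Its signal was 7.47 and 7.25 in knockdown 1 and knockdown 2, against 7.77 and 7.74 in the controls. The lowest control stood 0.27 above the highest knockdown array, while the controls differed from each other by 0.03 and the knockdown arrays by 0.22. Knockdown minus control was -0.39 on the log2 scale, or 1.31-fold lower, with an SE of 0.09 and a 95% confidence interval of -0.61 to -0.18 (limma unadjusted p = 0.00382, adjusted p = 0.615). Only 1.46% of all genes differed by more in size.

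Egr2, known as Krox20 and as a regulator of myelination and of bone, was lower by nearly the same amount in both arrays. Its brighter probe set read 4.10 and 4.11 in knockdown and 4.50 and 4.52 in control, so the pairs were tight and did not overlap. The log2 difference was -0.41 (SE 0.08, 95% confidence interval -0.59 to -0.22), 1.32-fold lower (limma unadjusted p = 0.00142, adjusted p = 0.577). Its dimmer probe set read 3.63 and 3.57 in knockdown and 3.76 and 3.78 in control, again without overlap, a log2 difference of -0.17 in the fit over 45037 probe sets. Egr2, Egr3, Fos, Fosb and Fosl1 gave signals below the median of all genes (Egr2 at percentile 40.2), where RMA compresses a change.

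Egr3, a close relative of Egr2 that shares targets with it, showed no separation. It read 4.52 and 4.46 in knockdown and 4.48 and 4.64 in control, where the controls lay further apart than the knockdown arrays. The log2 difference was -0.07 (95% confidence interval -0.29 to 0.15), an interval that includes a lower and a higher level, and it was 0.01 without control 2.

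The Fos family supplies the partners that Jun proteins need for the strongest AP-1 binding. Fos itself read 4.62 and 4.19 in knockdown and 4.45 and 4.43 in control. Knockdown 1 lay 0.18 above the control mean and knockdown 2 differed from it by -0.25, so the mean difference of -0.03 (SE 0.14, 95% confidence interval -0.37 to 0.31) averages arrays of opposite sign. Fosl2, which encodes Fra-2, a factor of chondrocyte and osteoblast differentiation, read 9.29 and 8.84 in knockdown and 8.90 and 8.85 in control. Only knockdown 1 stood apart, by 0.42, and the mean difference was 0.19 (SE 0.13). The other Fosl2 probe set read 4.93 and 4.85 in knockdown and 4.93 and 4.88 in control, and the higher signal of knockdown 1 was not seen there.

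Fosb, whose product pairs with Jun proteins as Fos does, gave a dim signal on its 1 probe set. It read 3.68 and 3.59 in knockdown and 3.75 and 3.78 in control, with a gap of 0.07 between the groups and a log2 difference of -0.13 (SE 0.07, 95% confidence interval -0.30 to 0.05, limma unadjusted p = 0.133). Fosl1, which encodes Fra-1, a positive regulator of bone matrix, read 4.45 and 4.46 in knockdown and 4.50 and 4.22 in control. The controls bracketed the knockdown pair, and the difference of 0.09 (SE 0.11) turned to -0.04 in its dimmer probe set.

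Among the Jun proteins, which dimerize with each other as well as with Fos proteins, Jun was higher in knockdown. Jun encodes the c-Jun protein, a target of the JNK kinases that activates its own promoter through the variant AP-1 element shown above. It read 7.75 and 7.58 in knockdown and 7.41 and 7.36 in control. Both knockdown arrays lay above both controls, knockdown 1 by more, and the log2 difference was 0.28 (SE 0.08, 95% confidence interval 0.08 to 0.47), 1.21-fold higher (limma unadjusted p = 0.0126, adjusted p = 0.728). The other Jun probe set read 6.59 and 6.28 in knockdown and 6.17 and 6.20 in control, again with both knockdown arrays above both controls, with a log2 difference of 0.25 and a gap of 0.08.

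Junb, which often opposes Jun and is needed for normal bone formation, had the widest range of the members over the 4 arrays. It read 5.32 and 4.75 in knockdown and 4.95 and 5.03 in control, so the controls lay between the knockdown arrays. The difference of 0.05 (SE 0.18, 95% confidence interval -0.38 to 0.48) leaves the direction undetermined. Jund, the Jun protein that is made more steadily in resting cells, read 7.56 and 7.53 in knockdown and 7.56 and 7.55 in control, all 4 arrays within 0.04. Its difference was -0.01 (95% confidence interval -0.17 to 0.14). Its second probe set, dim, was 3.49 and 3.88 in knockdown and 3.72 and 3.67 in control, also overlapping.

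**Figure D2:**
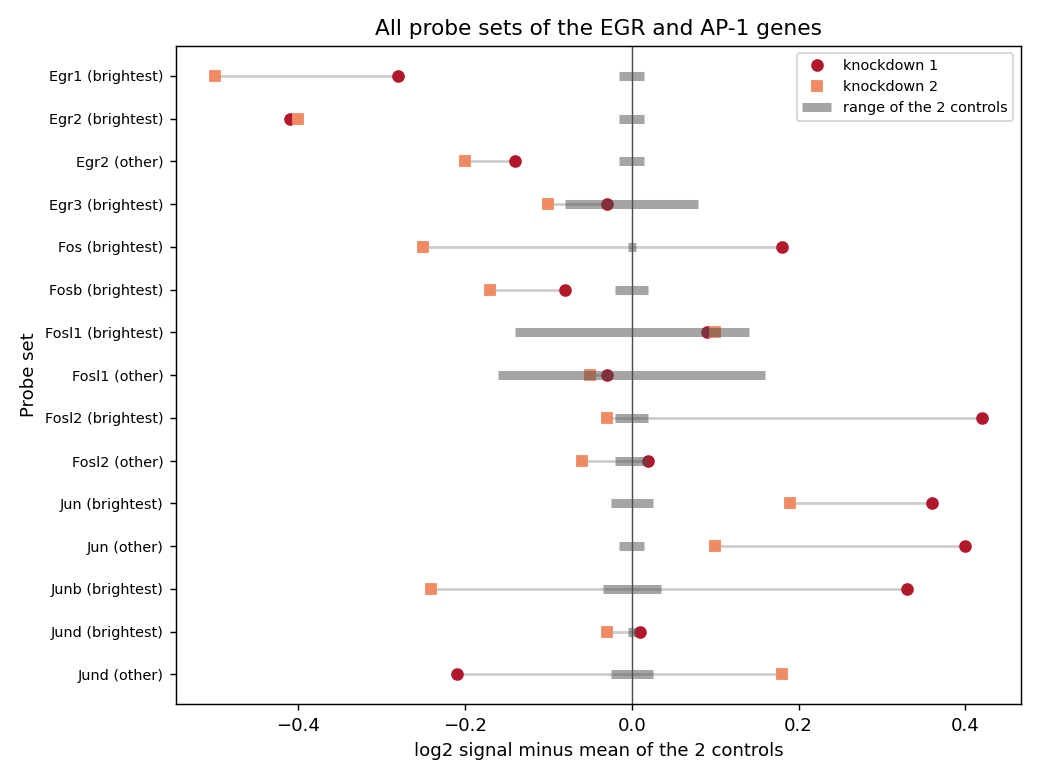
Signal of knockdown 1 and knockdown 2 minus the mean of the controls (log2) for all 15 probe sets of the members, with grey bars for the range of the 2 controls. Both probe sets of Egr2 lie to the left of zero and both of Jun to the right, whereas Fosl1 and Fosl2 have probe sets of opposite mean sign.

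Taken by probe set, 4 of 15 had both knockdown arrays below both controls (19.9% of all probe sets did) and 2 had both above (18.6%). In limma over all probe sets 0 of the 15 passed, against 0.00222% of all probe sets, which is 1 of 45037. At an unadjusted p of 0.05 there were 2 lower (3.83% of all probe sets) and 1 higher (3.42%), one each for Egr1, Egr2 and Jun. Where a gene had 2 probe sets, they share its transcript and are not independent measurements.

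The knockdown arrays did not resemble each other for 3 members. Knockdown 1 exceeded knockdown 2 by 0.57 for Junb, by 0.45 for Fosl2 and by 0.43 for Fos, while the controls differed by 0.07, 0.04 and 0.01 for the same genes. For Egr1 the array further from the controls was knockdown 2 (-0.50, against -0.28 in knockdown 1), and for Jun it was knockdown 1 (0.36, against 0.19 in knockdown 2). Over all genes the SD of the difference between the knockdown arrays was 0.20, and between the controls 0.10. With knockdown 1 left out, limma passed Egr1 (-0.50, adjusted p = 6.69e-05) and Egr2 (-0.40, adjusted p = 0.0396), both lower, where 1.37% of all genes passed as lower and 1.91% as higher. With knockdown 2 left out it passed Egr1 (-0.28, adjusted p = 0.00178) and Egr2 (-0.41, adjusted p = 0.00974) as lower, against 6.18% of all genes, and Jun (0.36, adjusted p = 0.000291), Fosl2 (0.42, adjusted p = 1.18e-06) and Junb (0.33, adjusted p = 0.0269) as higher, against 8.94%. In these fits the lone knockdown array is taken to vary like the controls, which were close to each other, so they describe single arrays and do not replicate one another. With 1 array in a group, more genes separate by construction. The groups did not overlap for 9 of the 10 members without knockdown 1 and 8 without knockdown 2, beside 73.5% and 77.8% of all genes. They did not overlap for 6 members without control 1 and 5 without control 2, beside 62.3% and 63% of all genes, and for 4 members with all arrays, beside 38.3%.

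**Figure D3:**
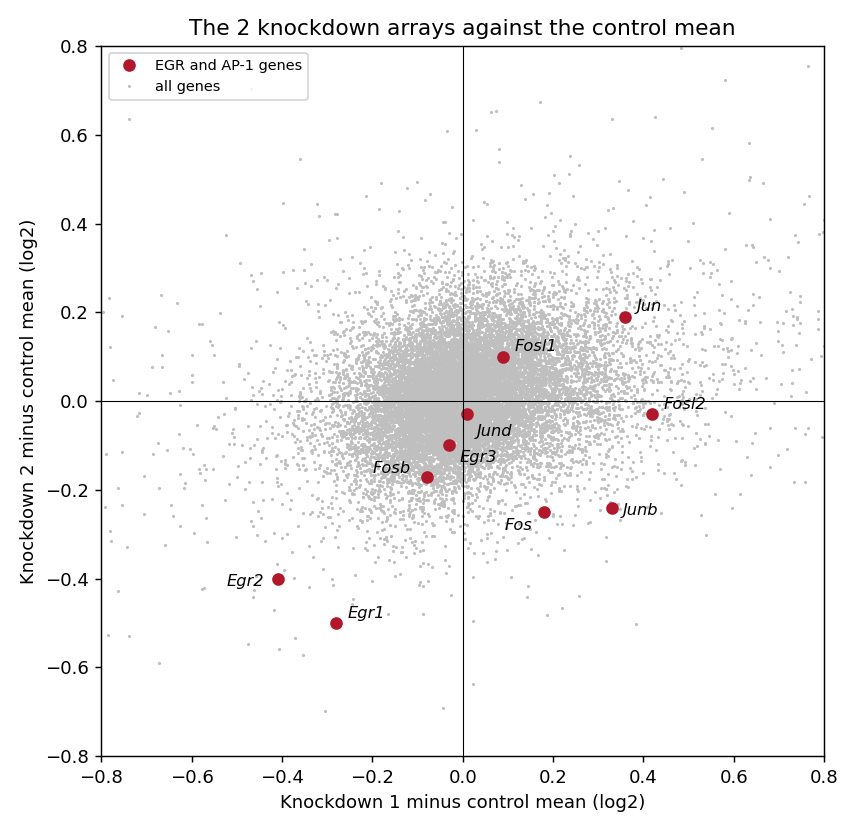
Difference of knockdown 1 (horizontal axis) and of knockdown 2 (vertical axis) from the mean of the controls, log2, for the 10 members and for all genes within 0.8 of zero on both axes (129 genes lie outside). Egr1, Egr2, Egr3 and Fosb lie in the lower left, and Jun and Fosl1 in the upper right. Fos, Junb, Fosl2 and Jund lie in the lower right, where the arrays have opposite signs.

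By pattern over the 4 arrays, the 3 genes nearest to Egr1, among 8326 named genes at or above the median signal, were Ramp2, Thoc2 and Dhx36. Likeness was the Euclidean distance of log2 values after subtracting each gene's control mean, and it was 0.102, 0.114 and 0.115 for these genes. Ramp2, a co-receptor for adrenomedullin, read 11.32 and 11.10 in knockdown and 11.70 and 11.65 in control. The nearest to Junb were Lonrf1, Frrs1 and Cebpb at distances of 0.019, 0.039 and 0.042. Cebpb encodes a leucine zipper factor and read 8.63 and 8.10 in knockdown and 8.29 and 8.32 in control, with the same split of the knockdown arrays. The other members varied by under 0.5 over the arrays and were not matched, and 4 arrays allow many genes to look alike.

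Other immediate early genes were found on both sides of the controls. Of 28 listed, 27 were measured, 0 passed over all genes, and the median difference was 0. At an unadjusted p of 0.05 there were 5 lower and 4 higher, beside 2.52% and 4.15% of all genes. The groups did not overlap for 6 lower and 5 higher of the 27, beside 17.1% and 21.2% of all genes. Nr4a1, an orphan nuclear receptor induced with Egr1 by many signals, read 5.94 and 6.12 in knockdown and 6.45 and 6.32 in control (log2 difference -0.36, limma unadjusted p = 0.0096). The remaining lower ones, named after their values were seen, were its relative Nr4a3 (-0.29, 1 of whose 3 probe sets had the other sign), the factor gene Klf4 (-0.37), the fourth EGR gene Egr4 (-0.21) and Ier2 (-0.20).

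On the higher side stood Plk2, a kinase induced by serum, at 8.19 and 7.78 in knockdown and 7.39 and 7.41 in control (log2 difference 0.59, limma unadjusted p = 0.0036, adjusted p = 0.615). Ccn2, the matricellular connective tissue growth factor, read 6.37 and 6.01 in knockdown and 5.61 and 5.67 in control (0.55, limma unadjusted p = 0.00421, adjusted p = 0.615). Both were higher in knockdown 1 than in knockdown 2, and both arrays lay above the controls. The others, named after their values were seen, were the cyclooxygenase gene Ptgs2 (0.37) and the G protein regulator Rgs2 (0.47). The bright genes Myc and Gadd45b overlapped between groups, at 8.99 and 8.87 in knockdown and 8.94 and 8.82 in control for Myc, and at 9.23 and 8.56 in knockdown and 8.73 and 8.77 in control for Gadd45b. Dusp1, a phosphatase that ends MAP kinase signalling and also named after its values were seen, read 8.11 and 9.02 in knockdown and 8.49 and 8.46 in control, the arrays lying on opposite sides.

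The genes that act upstream of the EGR and Fos promoters, SRF, its partners and the MAP kinases, differed by -0.13 to 0.14, with a median of 0.02 over the 14 of 20 measured. In limma 0 passed, as did 0% of all genes, and 0 had an unadjusted p under 0.05. At that level 2.52% of all genes were lower and 4.15% higher. The groups did not overlap for 2 lower and 4 higher of the 14, beside 17.1% and 21.2% of all genes. The SRF coactivator genes Mrtfa (0.14) and Mrtfb (0.11) lay above both controls in both arrays, and the ERK-activated kinase gene Rps6ka3 (-0.13) lay below, although 2 of its 3 probe sets had the other sign. The bright kinases Map2k1 and Mapk14 differed by 0.02 and 0.01. RNA levels of these genes say nothing of the activity of their proteins.

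Partners and relatives of AP-1 with a leucine zipper had a median of -0.05 over the 15 of 16 measured, with 0 passing. At an unadjusted p of 0.05 there were 1 lower and 1 higher, beside 2.52% and 4.15% of all genes. The groups did not overlap for 6 lower and 2 higher of the 15, beside 17.1% and 21.2% of all genes. Many of these separations were slight, with gaps between the groups of 0 to 0.11 for the 6 lower and 0.03 to 0.07 for the 2 higher. Creb1, whose product binds cAMP response elements, read 7.30 and 7.15 in knockdown and 7.53 and 7.41 in control (-0.24, limma unadjusted p = 0.0272, 1 of 6 probe sets of opposite sign). Maf (0.20, limma unadjusted p = 0.0434) was dim, at 2.84 to 3.17 over the arrays. The stress factor Atf4 differed by -0.07 and Atf2, a partner of Jun at the variant element, by -0.07 (1 of 4 probe sets of opposite sign). Maff is counted in this list and in that of immediate early genes.

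Corepressors and textbook targets of EGR proteins had a median of 0 over the 9 of 13 measured, with 0 passing and, at an unadjusted p of 0.05, 2 lower and 0 higher, beside 2.52% and 4.15% of all genes. Nab1, a corepressor that binds EGR proteins, read 8.84 and 8.95 in knockdown and 9.02 and 9.08 in control (-0.16, limma unadjusted p = 0.0325), and all 3 of its probe sets had this sign. Cd44, the hyaluronan receptor, read 9.56 and 9.81 in knockdown and 9.93 and 9.97 in control (-0.27, limma unadjusted p = 0.0159), with all 4 probe sets of this sign. Icam1 was dim and differed by 0.10. Of these targets 5 lay below the median signal of all genes, where a difference is compressed.

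Textbook AP-1 targets had a median of 0.06 over the 16 of 18 measured, with a list median of 0.10 in knockdown 1 and -0.04 in knockdown 2. In limma 0 passed and 0 had an unadjusted p under 0.05, which 2.52% of all genes had as lower and 4.15% as higher. The groups did not overlap for 1 lower and 1 higher of the 16, beside 17.1% and 21.2% of all genes. Il6, an inflammatory cytokine, read 7.03 and 5.34 in knockdown and 5.40 and 5.30 in control, so its mean difference of 0.83 (SE 0.48) lay in knockdown 1. Ccnd1, the cyclin D1 gene, read 8.51 and 7.92 in knockdown and 7.98 and 7.96 in control (0.24, 1 of 3 probe sets of opposite sign). Timp1 differed by 0.08 and Mmp9 by 0.10. Among the 16 measured, 8 lay below the median signal of all genes, where a difference is compressed, and Mmp9 (percentile 30) was one of them.

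**Figure D4:**
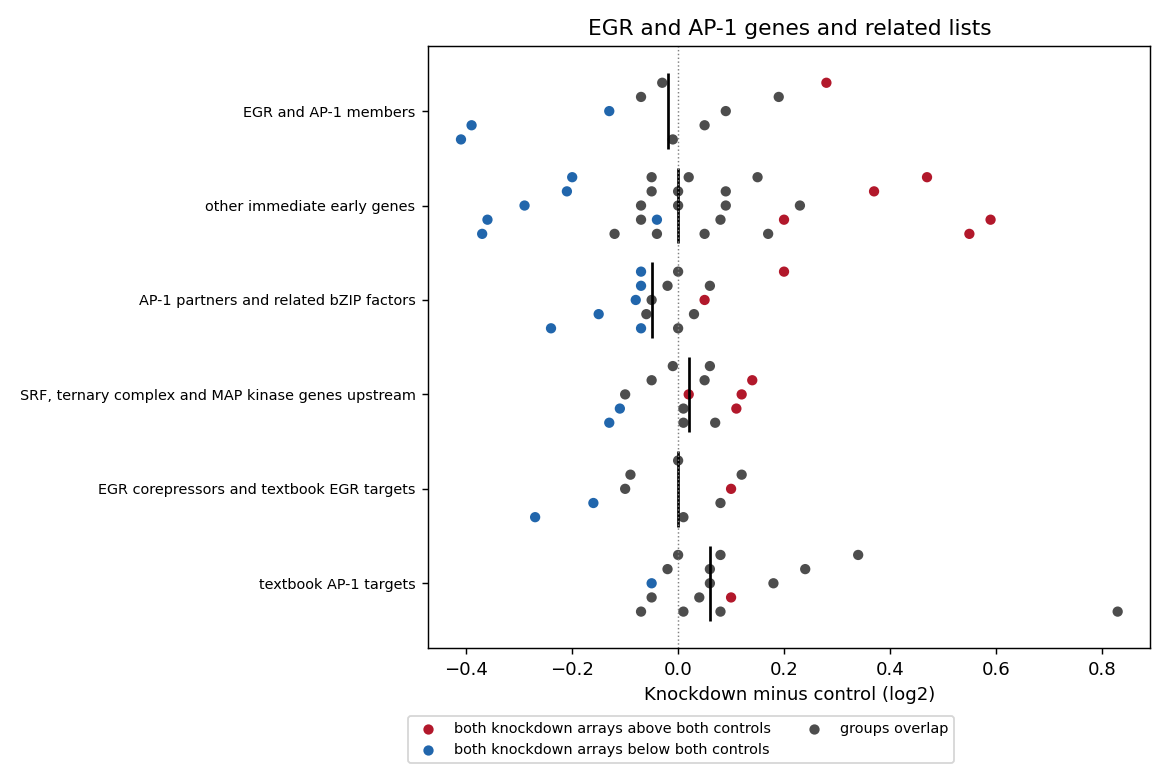
Knockdown minus control (log2) for the measured genes of the members and of 5 related lists, 1 point a gene, with vertical lines at the medians and colours for genes whose groups do not overlap. The other immediate early genes spread from -0.37 to 0.59, the upstream genes from -0.13 to 0.14, and the single AP-1 target at 0.83 is Il6.

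Of the 9 chondrocyte markers 4 (Comp, Matn1, Matn3 and Hapln1) lay below the median signal of all genes and 5 did not, among them Sox9 at 7.47 to 7.52 and Col2a1 at 8.23 to 9.17 over the arrays. The median difference of the 9 was -0.06. Their log2 signals summed to 52.25 and 55.62 in knockdown 1 and knockdown 2 and to 54.98 and 55.41 in the controls. Of the 6 osteoblast markers 4 were measured, and Runx2 and Alpl were not. All 4 lay lower in both knockdown arrays (17.1% of all genes did). The gap between the groups was 0.02 for Bglap, 0.08 for Sp7, 0.19 for Dmp1 and 1.13 for Ibsp. Knockdown 2 differed from the control mean by only -0.03 for Bglap and -0.11 for Sp7. The log2 signals of the 4 summed to 23.46 and 28.14 in knockdown 1 and knockdown 2 and to 29.77 and 29.58 in the controls. Ibsp had the largest knockdown minus control difference of the 4 (-2.13). The part of the chondrocyte and osteoblast markers in the EGR and AP-1 values was not tested. All 5 skeletal muscle, 5 endothelial and 5 macrophage markers lay below the median signal of all genes, as did 3 of 4 adipocyte markers. Their summed log2 signals spanned 20.21 to 20.22 in knockdown and 20.16 to 20.31 in control for muscle, and 17.86 to 18.03 in knockdown and 17.76 to 18.16 in control for endothelium. They spanned 18.71 to 18.81 in knockdown and 18.66 to 18.74 in control for macrophages, and 15.16 to 15.25 in knockdown and 14.71 to 15.10 in control for adipocytes.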

How the data were processed

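RNA labelled with biotin was read on 4 Affymetrix mouse arrays. Per the submitters' processing notes the authors ran RMA, and the deposited table holds its log2 signals, 1 per probe set. The RMA software is not given in the sources used here, and base 2 was inferred from the values, which span 2.17 to 12.72. Of 45141 probe sets, 104 array controls were left out. Each of 17097 genes was represented by its brightest probe set with 1 annotated symbol, and 28898 probe sets had 1 symbol, 551 several and 15692 none. Gene identifiers of 28689 probe sets matched a GRCm38.p6 table, used for names only. Knockdown and control were compared by limma 3.58.1 (R 4.3.3) using lmFit and eBayes with trend (2 residual and 4.45 prior degrees of freedom), two-sided, with Benjamini-Hochberg adjustment over all genes or all probe sets. The step was tested on simulated data with equal spread in both groups. In the arrays themselves the SD of the difference within the pair was 0.20 for knockdown and 0.10 for control. Precision is limited by 2 arrays per group.

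The members and lists were chosen with earlier results of these data known. Named genes are the members, Chadl, and from each of 5 related lists the 2 brightest and the 3 with the smallest p; others are marked as named after their values were seen. Pattern neighbours were sought for members ranging over 0.5 or more. Alternatives were quantile normalization, centring, a dim filter at the 40th percentile, the mean of probe sets, eBayes without trend, robust eBayes, a replicate block and leaving out each array.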

Additional observations from a re-analysis of the deposited data

How the results depend on the processing

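No member and no gene passed under quantile normalization, centring of the arrays, the dim filter (which left out Fosb), the mean of probe sets, robust eBayes, eBayes without the trend, a replicate block or, for both counts, an adjusted p of 0.1. RMA had already given the arrays the same distribution (medians of 4.24 to 4.25), so a further quantile normalization could change little and is a weak check. Egr1, Egr2, Fosb and Jun kept their sign in every alternative run for them. Their groups did not overlap, so leaving out 1 array could not have turned their sign. The other 6 members each turned sign when 1 array was left out and were uncalled where they turned: Egr3 (-0.15 to 0.01) and Fosl1 (-0.05 to 0.24) without control 2, Fos (-0.25 to 0.18) and Jund (-0.03 to 0.01) without knockdown 2, and Fosl2 (-0.03 to 0.42) and Junb (-0.24 to 0.33) without knockdown 1. Over these refits the number of genes passing ranged from 0 to 2584 (561 without knockdown 1, 2584 without knockdown 2, and 0 without either control), the number of members passing from 0 to 5, the number of member probe sets passing from 0 to 6, and the number of members whose groups did not overlap from 5 to 9, against 4 with all arrays. With 1 array in a group more genes separate by construction, 62.3% to 77.8% of all genes against 38.3% with all arrays. Fosl2 and Junb passed as higher without knockdown 2 (0.42 and 0.33). The median of the members was -0.13 without knockdown 1 and 0.05 without knockdown 2. The titles number the arrays 1 and 2 in each group. The deviations of same-numbered arrays from their group means had a correlation of 0 over 17097 genes, so no shared shift was seen. That value cannot show whether such arrays shared a culture or a day. With the replicate block in limma 0 genes passed (Egr1 adjusted p = 0.711). With 2 arrays a group, differences of this size cannot be told from the spread between arrays after adjustment over all genes.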
